A study of Mus musculus with 16 samples.

Results

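The 10 genes described here mark the endothelium, the cell layer that lines blood and lymphatic vessels: Pecam1, Cdh5, Kdr, Ecscr, Mcam, Egfl7, Esam, Plvap, Tie1 and Eng. They were picked by gene symbol from the 22396 symbols measured in EpCAM+ cells sorted from the distal colon, all 10 were found, and the question was whether Ecscr and Mcam followed the other 8 after dextran sulfate sodium (DSS), a polymer in the drinking water that injures the colonic epithelium. Ecscr and Mcam had been singled out from the difference between genotypes after DSS, so that difference is given for them as a description, without a test.

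EpCAM is a surface protein of epithelial cells, and RNA of the sorted cells was sequenced from 16 mice. The DSS groups held 3 control mice, which carried the floxed allele of the TNFR2 gene without Cre (Tnfr2-f/f), and 4 mice labelled knockout, which carried the same floxed allele with Cre recombinase (Vil1::Cre;Tnfr2-f/f). The water groups held 4 controls and 5 mice labelled knockout of the same genotypes. Vil1::Cre is driven by the villin promoter, which is active in intestinal epithelial cells and not in endothelium, so the floxed allele was not aimed at in vessel cells. By the study's methods the mice were 8 weeks old. The labels give 3% DSS for 6 days and dissection on day 12, whereas the methods give 3.5% DSS. All 7 DSS mice were female and came from cages c (1 control, 1 labelled knockout) and d (2 controls, 3 labelled knockout). The water mice came from cage a (2 males of each genotype) and cage b (2 control and 3 labelled knockout females). No cage held both treatments, so treatment and cage cannot be told apart. By the study's methods, injured regions of the DSS colons were separated from unaffected colon before the cells were sorted. Treatment and dissected region therefore cannot be told apart either, and males were in the water groups only.

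Endothelial cells hold to each other through cadherin and immunoglobulin-type adhesion proteins, and they receive growth signals through receptor tyrosine kinases for VEGF and angiopoietins and through receptors of the BMP and TGF-beta family. The capillaries beneath the colonic epithelium are fenestrated, which lets water and solutes pass. An epithelial sort should hold few such cells, and in bulk RNA fewer cells of a type and less RNA per cell cannot be told apart. Levels are in TPM, a share of the library's transcripts that is divided by transcript length and so can be compared between genes. Epithelial markers were high in every library: 10 epithelial genes, among them Krt8, Krt19 and Epcam, summed to 4715 to 7434 TPM per mouse after DSS and 4835 to 6883 TPM in water. The 10 vessel genes summed to 19.4 to 63.9 TPM and 15.1 to 51.3 TPM. Both ranges overlapped between the treatments.

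Several facts of the libraries bear on every value below. The summed TPM of the listed transcripts ran from 539359 to 662142 per mouse after DSS and from 487469 to 861109 in water, and 10310 to 10961 genes reached 1 TPM. Both treatments were scaled in tables of their own, so levels between them are set side by side and not tested. Tnfrsf1b, the targeted gene, stood at 13.3 to 22.2 TPM in the DSS controls and 13.5 to 27.0 TPM in the DSS mice labelled knockout, with overlap in water too (11.1 to 15.5 TPM against 9.23 to 14.8 TPM), and its TPM does not show which exons were read. Summed markers of other cells also ranged widely: 17 leukocyte genes summed to 30.99 to 500.2 TPM after DSS and 1647 to 14772 TPM in water, and 12 fibroblast genes to 131 to 653 TPM and 286 to 971 TPM. The leukocyte sum exceeded the epithelial sum in 6 of the 9 water mice and in none of the DSS mice. By mean level Jchain led the leukocyte genes, at 465 to 13800 TPM in water (median 5290 TPM), followed by Lyz2 at 468 to 1060 TPM. The excess in water therefore rested largely on 1 gene.

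Promoter stretches are shown for 3 members, the receptor genes Kdr and Eng and the adhesion gene Mcam, as examples of the sequence before vessel genes. RefSeq on GRCm38.p6 gave the start site for 5 of the 10 genes, and each stretch was cut where the first annotated transcript of the gene begins. Capitals mark GGAAG, or CTTCC on the other strand, a run that holds the core read by ETS-family factors, regulators of many endothelial genes. Sequences run 5′ to 3′ on the strand of the gene.
Kdr (chr5:75978459-75978705, minus strand): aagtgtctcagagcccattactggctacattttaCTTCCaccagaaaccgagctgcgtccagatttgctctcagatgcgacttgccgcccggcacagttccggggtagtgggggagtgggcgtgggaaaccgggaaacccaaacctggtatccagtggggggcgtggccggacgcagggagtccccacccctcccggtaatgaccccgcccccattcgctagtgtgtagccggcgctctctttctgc
Eng (chr2:32646345-32646594, plus strand): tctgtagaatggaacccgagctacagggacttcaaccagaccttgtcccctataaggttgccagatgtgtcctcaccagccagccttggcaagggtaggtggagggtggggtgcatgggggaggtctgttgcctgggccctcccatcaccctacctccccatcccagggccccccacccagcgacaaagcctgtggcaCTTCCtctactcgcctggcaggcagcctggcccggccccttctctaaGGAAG
Mcam (chr9:44134408-44134468, plus strand): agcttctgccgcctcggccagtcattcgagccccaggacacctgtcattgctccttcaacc
Over the whole 250 bases before the start site, Kdr held 1 match, Eng held 2 and Mcam held 0, the tyrosine kinase receptor gene Tie1 held 6, and the 3 windows of Egfl7, which has several start sites, held 4, 2 and 0. Of 32851 mouse promoter windows of the same length, 64.1% held at least 1 match, so a match is common. GATAA, or TTATC on the other strand, a run read by GATA factors, was found in 22.6% of these windows, once in 1 of the 3 windows of Egfl7 and in none of those of Kdr, Eng, Tie1 and Mcam. Only whole runs were counted, so a window with 0 matches of GGAAG can still hold the shorter core. These are letters in a window and not measured binding sites.

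The junction and adhesion genes come first. Cdh5 (VE-cadherin, the cadherin of endothelial junctions; chr8:104101625-104144511) was above 0 in all 16 mice. Its level was 6.73, 2.42 and 4.03 TPM in DSS controls 1, 2 and 3 and 3.03, 5.86, 4.15 and 2.30 TPM in DSS mice 1 to 4 labelled knockout. The genotypes overlapped, with a control the highest and a mouse labelled knockout the lowest of the 7. In water it was 2.69, 4.44, 2.77 and 2.03 TPM in the control mice and 1.26, 1.26, 2.69, 3.02 and 3.76 TPM in the labelled-knockout mice. Esam (a tight-junction adhesion protein of endothelium and platelets; chr9:37528078-37538319) was 2.33 to 4.95 TPM in the DSS controls and 3.17 to 5.31 TPM in the DSS mice labelled knockout, and 1.15 to 4.96 TPM over the 9 water mice. Pecam1 (CD31, a junctional adhesion protein; chr11:106654217-106750628) lay under 0.01 TPM in 7 of the 16 mice, 3 after DSS and 4 in water, and reached 2.32 TPM after DSS and 6.70 TPM in water. Its zeros fell in both genotypes and both treatments.

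Mcam (CD146, an immunoglobulin-type adhesion protein of endothelium that pericytes and smooth muscle also carry; chr9:44134469-44142727) differed in pattern from these. It was 1.14, 2.14 and 0.542 TPM in DSS controls 1, 2 and 3. In the DSS mice labelled knockout it was 4.33, 3.97, 7.32 and 2.79 TPM. Every DSS mouse labelled knockout was above every DSS control, the lowest of the former by a small step over control 2. In water Mcam was 1.77, 2.36, 0 and 0 TPM in the control mice and 0, 1.14, 0.901, 1.33 and 1.64 TPM in the labelled-knockout mice, so that the genotypes overlapped.

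Among the receptors and signalling genes, Kdr (the main VEGF receptor of endothelium; chr5:75932827-75978458) was 4.76, 1.86 and 1.85 TPM in the DSS controls and 1.42, 3.79, 3.61 and 2.01 TPM in the DSS mice labelled knockout. DSS control 1, the highest mouse for Cdh5, was also the highest for Kdr. Tie1 (the partner receptor of the angiopoietin receptor Tek; chr4:118471191-118490061) was 1.61, 0.483 and 1.82 TPM in the DSS controls and 1.56, 2.33, 2.19 and 1.44 TPM in the DSS mice labelled knockout. In water Kdr ranged from 0.761 to 3.92 TPM and Tie1 from 1.12 to 2.81 TPM. Both receptors overlapped between genotypes and between treatments. Eng (endoglin, a co-receptor for BMP and TGF-beta ligands; chr2:32646595-32682669) was under 0.01 TPM in 5 of 16 mice and at most 2.31 TPM after DSS and 5.94 TPM in water.

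Plvap (the protein of the diaphragms that span endothelial fenestrae; chr8:71497765-71511752) was the most abundant of the 10 genes per length in each of the 16 mice. It was 21.6, 8.83 and 15.7 TPM in the DSS controls and 13.3, 23.6, 27.0 and 12.4 TPM in the DSS mice labelled knockout. In water it ran from 7.85 to 22.3 TPM in the control mice and from 8.98 to 28.5 TPM in the labelled-knockout mice. All 4 groups overlapped. Egfl7 (a protein secreted by endothelial cells into the vessel matrix; chr2:26580014-26593120) was summed over 4 listed transcripts and was 1.04 to 1.79 TPM in the DSS controls, 0.327 to 2.31 TPM in the DSS mice labelled knockout and 0 to 6.12 TPM in water.

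Ecscr (a single-pass surface protein of endothelial cells with a part in chemotaxis and survival; chr18:35713086-35722356) was nearly a presence or absence. It was 4.20, 0 and 0 TPM in DSS controls 1, 2 and 3. In the DSS mice labelled knockout it was 12.8, 9.74, 8.98 and 11.2 TPM. The values fell into separate clusters by genotype, and in each of the 4 mice labelled knockout Ecscr was the next most abundant of the 10 genes after Plvap. In water it was listed at 1.99 TPM in control 1 and at 0 in the other 8 mice. An exact 0 in these tables can be a failed estimate rather than missing RNA, and the deposited values do not tell which.

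**Figure D1:**
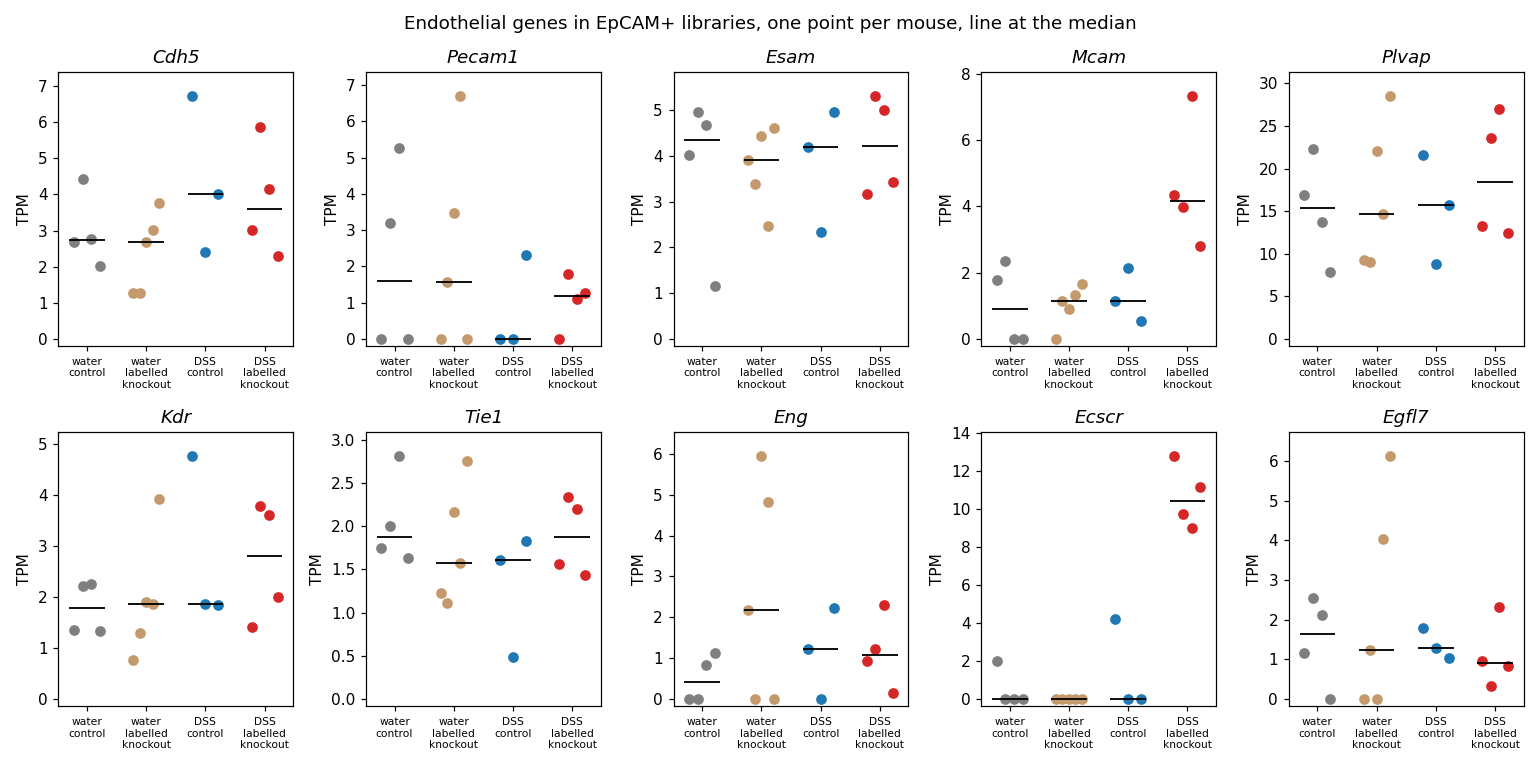
TPM of the 10 vessel genes, 1 panel per gene, with 1 point per mouse and a line at the median of each of the 4 groups (4, 5, 3 and 4 mice). Ecscr at 8.98 to 12.8 TPM and Mcam at 2.79 to 7.32 TPM in the DSS mice labelled knockout lie above all 3 DSS controls, while the groups overlap for the other 8 genes.

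How a transcript was listed differed between the genes. Only the principal isoform or isoforms of each gene are in the tables, and a read that fits several isoforms is divided among them by the authors' program. In GENCODE M21 on GRCm38, all windows of 31 bases of the listed Plvap transcript were absent from any other isoform, as it is the only one, and for Cdh5 97.2% were. The share was 62.0% for Kdr and 56.1% for Esam. These 4 genes were above 0 in all 16 mice. The share was 15.7% for Ecscr, 7.54% for Tie1, 5.10% for Mcam, 0.892% for Pecam1 and 0% for Eng, and at most 13.5% for the 4 transcripts of Egfl7. Some windows also occur in transcripts of other genes, 4.06% of those of Ecscr (in 130 genes) and 12.2% to 19.3% of those of the Egfl7 transcripts (in 1 gene). Of these 6 genes Tie1 alone was above 0 in every mouse, and Ecscr was at 0 in 10 of 16. Ecscr has 7 annotated transcripts and Mcam has 6, with 1 listed for each, so a shift between isoforms and a change in the gene's total cannot be told apart from these values.

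**Figure D2:**
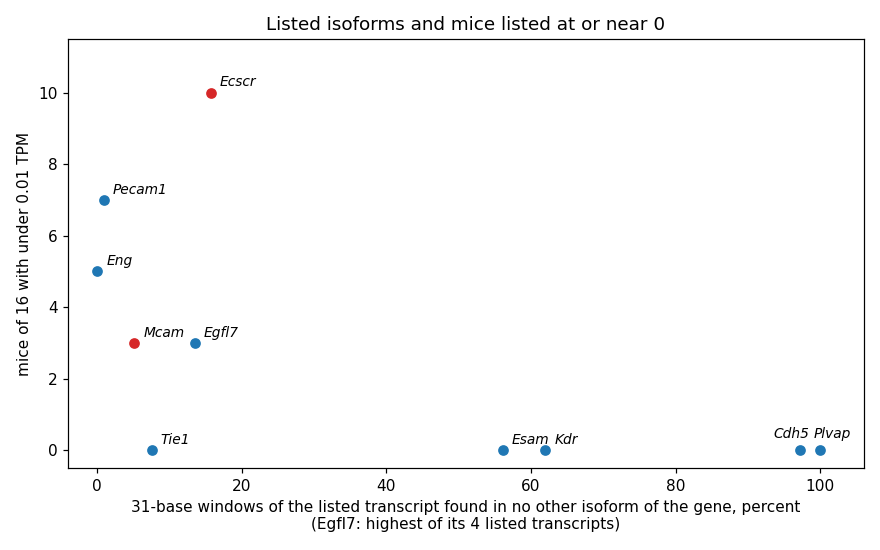
For each gene, the percent of 31-base windows of its listed transcript that no other isoform of the gene holds (x axis) against the number of the 16 mice with under 0.01 TPM (y axis). Plvap, Cdh5, Kdr and Esam, with shares of 56.1% or more, have no such mouse, whereas Ecscr has 10 and Mcam has 3.

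The authors' tables also give an estimate of the reads behind these levels. By the authors' mean of the natural log of the estimated counts, a mouse had a geometric mean of 176 counts for Plvap, 86.7 for Kdr and 86.4 for Cdh5 after DSS, and of 76.5, 28.9 and 27.6 counts in water. For Mcam it was 40.8 counts after DSS and 4.23 in water, and for Ecscr 13.1 after DSS, with no value in water, where the authors' filter had left it out. The mean for Ecscr includes 2 mice at 0, so it lies below the counts of the mice in which Ecscr was listed above 0. That for Mcam in water likewise includes 3 mice at 0, with none at 0 after DSS. Counts were also lower in water at a like TPM. Esam had 39.5 counts after DSS and 17.3 in water, at medians of 4.19 and 4.02 TPM. On the opposite strand, Ecscr overlaps 1700066B19Rik, which was 1.32, 4.64 and 4.46 TPM in the DSS controls and 6.15, 3.82, 3.26 and 4.81 TPM in the DSS mice labelled knockout. The libraries were stranded, but whether strand was used in the quantification is not given in the sources used here.

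Genotype was compared within each treatment by limma on log2(TPM + 1). Every gene whose mean reached 1 TPM was fitted, with Benjamini-Hochberg adjustment over all of them. After DSS, Ecscr was higher by 2.74 (SE 0.56) and Mcam by 1.30 (SE 0.34) in the mice labelled knockout, on that log2 scale, which understates the change of low genes. These are the values that chose both genes. Mural markers, whose cells also carry Mcam, summed to 26.8 to 70.3 TPM in the DSS controls and 25.2 to 75.6 TPM in the labelled-knockout mice, with overlap. The part of mural cells in the level of Mcam was not tested. Ecscr and Mcam were the only 2 of the 9 members fitted whose genotypes did not overlap, a count that the choice itself fixed. Over the 10899 genes fitted this held for 3.68% (2.13% with the mice labelled knockout all higher). The other vessel genes had smaller fitted differences. Plvap differed by 0.30 (SE 0.37), Tie1 by 0.36 (SE 0.30) and Esam by 0.13 (SE 0.27). Eng differed by 0.06 (SE 0.51), Kdr by -0.02 (SE 0.36), Cdh5 by -0.13 (SE 0.35) and Egfl7 by -0.24 (SE 0.35). Limma called 0 of these 7 genes, with an adjusted p of 1.00 each and 0 at an unadjusted p under 0.05, and no call is read for Ecscr or Mcam, in a comparison where 0.00918% of the genes were called. Pecam1 had a mean under 1 TPM after DSS and was not fitted. A test that Ecscr or Mcam differed more than another vessel gene was not made, since their difference had chosen them.

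In water, in mice that had no part in the choice, 9 members were fitted and 0 were called by limma, with 0 at an unadjusted p under 0.05, where 0.00905% of the 11046 genes fitted were called. Mcam differed by 0.13 (SE 0.46, adjusted p = 0.968) on the log2 scale, and by 0.77 with a pseudocount of 0.1, with overlap between the genotypes. Eng differed by 0.91 (SE 0.65, adjusted p = 0.865) and Cdh5 by -0.26 (SE 0.28, adjusted p = 0.884). The remaining 6 differed by between -0.16 (Tie1, SE 0.22) and 0.12 (Egfl7, SE 0.67), with Kdr at 0.01 (SE 0.30), Plvap at 0.08 (SE 0.39), Esam at 0.10 (SE 0.31) and Pecam1 at 0.11 (SE 0.80). No member had genotypes that did not overlap, against 1.55% of all genes. Ecscr, with 8 of 9 mice at 0, fell below the level at which genes were fitted. Whether the genotype difference of Mcam changed with treatment was not tested, because the tables were scaled separately.

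**Figure D3:**
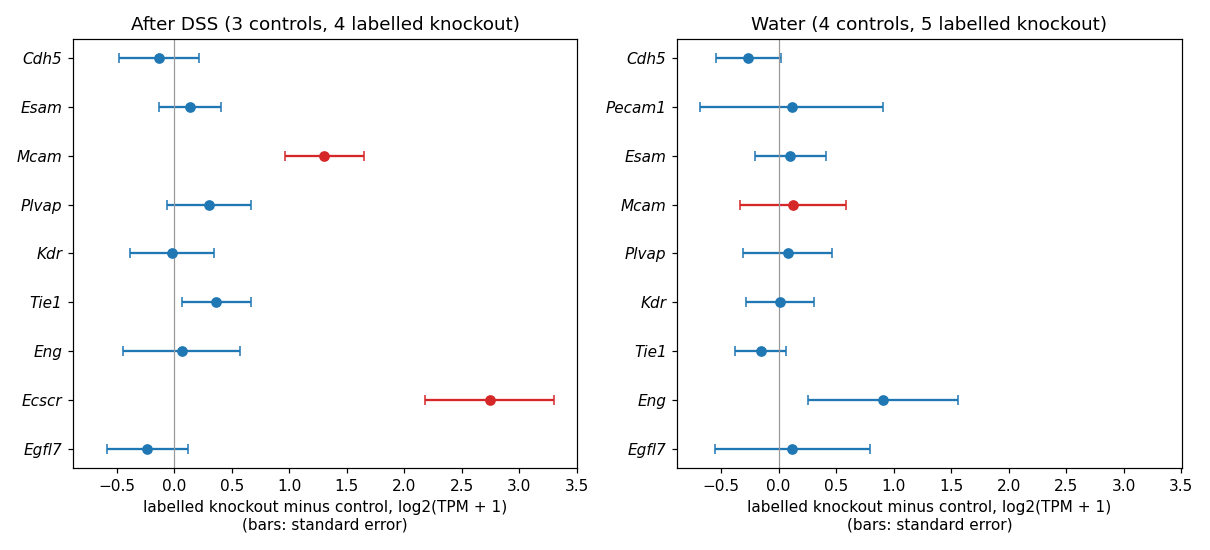
Difference between mice labelled knockout and controls in log2(TPM + 1), with bars of 1 standard error, after DSS (left) and in water (right). Ecscr at 2.74 and Mcam at 1.30 stand to the right of the other genes after DSS, where the others lie between -0.24 and 0.36, and Mcam is at 0.13 in water.

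A ratio to Cdh5 in the same mouse sets each gene against the junction cadherin of endothelium. The ratio of Ecscr to Cdh5 was 0.6247, 0 and 0 in the DSS controls and 4.22, 1.66, 2.16 and 4.86 in the DSS mice labelled knockout. Mcam over Cdh5 was 0.170, 0.883 and 0.135 in the DSS controls and 1.43, 0.677, 1.76 and 1.21 in the mice labelled knockout. By this ratio the genotypes did not overlap for Ecscr, where controls listed at 0 have a ratio of 0 at any level of Cdh5. For Mcam, control 2 stood above knockout-labelled mouse 2. Both genes were chosen by their values in these mice, so their ratios are a description and no check of the difference. Plvap over Cdh5 ranged from 3.22 to 6.49 and Kdr over Cdh5 from 0.459 to 0.876 over the same 7 mice.

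The 5 members above 0 in every mouse varied together across the DSS mice. Ordered by the mean log2(TPM + 1) of the 8 genes other than Ecscr and Mcam, the mice ran from control 2 (1.26) through knockout-labelled mice 1 (1.56) and 4 (1.59), controls 1 (2.05) and 3 (2.05) and knockout-labelled mouse 2 (2.14) to knockout-labelled mouse 3 (2.27). The lowest mouse was a control and the highest 2 were labelled knockout, with both genotypes in between. Ecscr was highest in knockout-labelled mouse 1, which was the next to lowest for the 8 genes, and 0 in control 3, which was the third highest for them. Mcam was highest in the mouse that led the 8 genes, next highest in knockout-labelled mouse 1, and lowest in control 3. Since the values in these same mice had chosen Ecscr and Mcam, their place in this order is a description. It supports nothing beyond that choice.

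**Figure D4:**
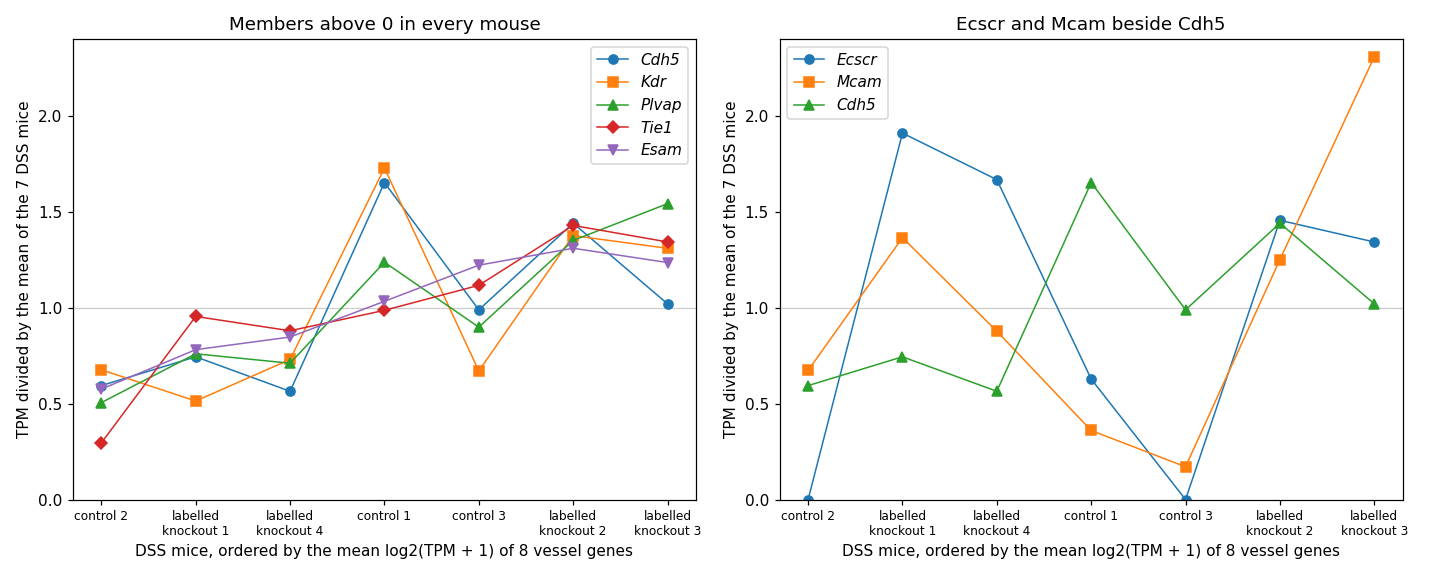
TPM of single genes divided by their mean over the 7 DSS mice, with the mice ordered from left to right by the mean log2(TPM + 1) of 8 vessel genes. Cdh5, Kdr, Plvap, Tie1 and Esam are all below 1 in the 3 mice on the left and above 1 in the 2 on the right (left panel), while Ecscr and Mcam peak in knockout-labelled mice 1 and 3 and are lowest in controls (right panel). Ecscr and Mcam had been chosen by their values in these mice.

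That order was shared with stromal genes. The summed fibroblast markers, led by Dcn and Col3a1 of the connective tissue matrix, were 653, 552, 229, 482, 140, 136 and 131 TPM from the highest to the lowest mouse of the 8-gene order. The 13 mural genes found, markers of pericytes and smooth muscle such as Rgs5, Acta2 and Tagln, summed to 25.2 to 75.6 TPM, with 2 of them at 0 in all 7 mice. Over the 7 mice, Cdh5 had a median Pearson r of 0.82 with 11 fibroblast genes, all 11 positive, and of 0.73 with 5 mural genes, and Plvap one of 0.94 with the fibroblast genes. The part of these cells in the level of the vessel genes was not tested. For Mcam the corresponding medians were 0.26 and 0.44, with all 11 fibroblast and all 5 mural genes positive. In the 3 mice with the lowest fibroblast sums Mcam was 4.33 TPM (knockout-labelled mouse 1), 2.79 TPM (knockout-labelled mouse 4) and 2.14 TPM (control 2), and in control 1, with a sum of 482 TPM, it was 1.14 TPM. In the mice with the highest sums, knockout-labelled mice 3 and 2, Mcam was 7.32 and 3.97 TPM.

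Correlations across mice are given as a description. Mcam was chosen because its values in the same 7 DSS mice separate by genotype, which by itself lowers its correlation with genes that do not, so its coefficients after DSS support nothing beyond that choice. The coefficients are over 7 or 9 mice that share table, scaling and cages, and genes within a mouse are not independent. Over the DSS mice Cdh5 correlated with the other 7 vessel genes by a median r of 0.65, from 0.05 (Egfl7) to 0.84 (Kdr), where its median r with all other genes was -0.02. Mcam correlated with the 8 vessel genes by a median of 0.06, from -0.14 (Cdh5) to 0.31 (Plvap), close to its median of 0.00 over all genes. For the wider list of 44 endothelial genes, such as Flt1, Ptprb, Emcn and Cd34, 24 of which reached a mean of 1 TPM after DSS, the median r was 0.81 with Cdh5 and 21 were positive. With Mcam the median was -0.02 and 12 were positive. No coefficient is given for Ecscr, whose values formed separate clusters after DSS and were 0 in 8 of 9 water mice.

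**Figure D5:**
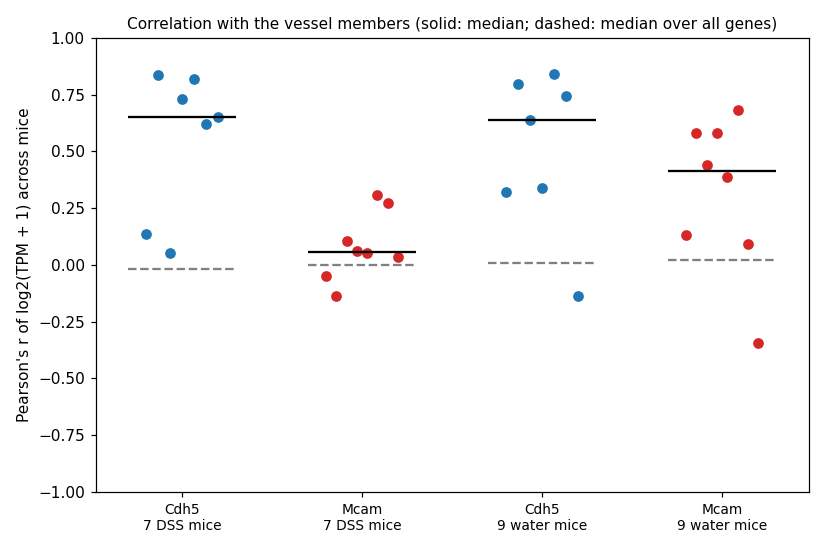
Pearson's r of log2(TPM + 1) across mice between Cdh5 or Mcam and each of the other vessel genes without Ecscr (1 point per gene), with a solid line at the median and a dashed line at the median over all genes. For Cdh5 the medians are 0.65 after DSS and 0.64 in water, and for Mcam 0.06 and 0.41.

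Mcam against Cdh5 alone gave r = -0.14 and Spearman's rho = -0.04 over the 7 DSS mice, given without a test for the same reason. Without the 2 mice farthest from the median of Cdh5, r was 0.17, and on deviations from the genotype means it was -0.0193. Over the 9 water mice r was 0.58 (exact two-sided permutation p = 0.103, adjusted p = 0.206) and rho was 0.63 (exact permutation p = 0.0808, adjusted p = 0.162), and without the 2 farthest mice r was 0.75. The relation in water did not pass the threshold of 0.05, its adjusted p being over the 2 relations computed, and whether the coefficients differ between treatments was not tested. In water Mcam correlated with the 8 vessel genes by a median of 0.41, from -0.34 (Eng) to 0.68 (Plvap), against 0.64 for Cdh5 with 7 of them, and its 3 zeros fell in mice with Cdh5 at 2.77, 2.03 and 1.26 TPM.

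The genes most like the mean of the 8 vessel genes over the DSS mice were Serinc5 (r = 0.99), Trdmt1, Slit3, Tceal8 and Tnxb (each 0.98). Those most like Mcam were Prps1 (0.98), Paqr8 (0.97), Art2a-ps (0.97), Esyt2 (0.96) and Slc35b1 (0.96), none of them among the endothelial genes listed. Mcam had been chosen by its separation of the genotypes in these mice, which favours other genes that separate them. In water those named were Dusp6 (0.95), Pptc7 (0.92), Gm9780 (0.92) and Hars2 (0.91) for the mean of 8, and Ppm1m (0.96), Cd300lg (0.95), Stk26 (0.93), Cenph (0.92) and Nrm (0.91) for Mcam. Cd300lg encodes a glycoprotein of capillary endothelium. With 7 mice many genes reach such values: 90 of 10899 had an r over 0.9 with the mean of 8, and 41 with Mcam.

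Between DSS and water, 0 of the 10 members had mice that did not overlap over both genotypes, under either scaling. Of the 11247 genes with a mean of 1 TPM, 18.9% had all DSS mice higher and 4.16% all DSS mice lower as deposited, and 4.52% and 6.96% did after rescaling. The median gene was 0.32 higher after DSS in log2(TPM + 1), and 0.01 after a rescaling of all 16 mice together by median-of-ratios factors, so a member's difference is read against that shift. As deposited, Mcam was 0.99 higher after DSS, Cdh5 0.46 and Kdr 0.37. Rescaled, these were 0.79, 0.19 and 0.13. As deposited but with a pseudocount of 0.1, they were 2.03, 0.60 and 0.53. Esam was 0.12 and Plvap 0.15 higher as deposited, and both turned to -0.16 and -0.19 with the rescaling. Tie1 was at -0.15 and -0.37, Egfl7 at -0.11 and -0.29, Eng at -0.01 and -0.17 and Pecam1 at -0.46 and -0.61. Egfl7 and Eng turned to 0.45 and 0.49 with a pseudocount of 0.1, and both also changed sign with single mice left out (Egfl7 -0.26 to 0.09, Eng -0.14 to 0.21). Esam as deposited changed sign in that way too (-0.0142 to 0.22), and Plvap ranged from 0.03 to 0.29. No difference is given for Ecscr, listed at 0 in 8 of the 9 water mice.

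By genotype, the comparison of treatments gave the following. In the mice labelled knockout alone, Ecscr and Mcam were higher in all 4 DSS mice than in all 5 water mice under both scalings, and the other 8 members overlapped, where 31.4% of genes as deposited and 17.4% rescaled had all DSS mice higher. A count of 2 of 10 lies near that background, and the comparison shares the DSS mice by which Ecscr and Mcam were chosen. Mcam differed by 1.497 in log2(TPM + 1) as deposited and by 1.25 rescaled. In the controls, which included 3 of the mice used in that choice, Mcam differed by 0.32 as deposited and 0.17 rescaled with overlap, beside 0.39 and 0.12 for Cdh5 and 0.39 and 0.15 for Kdr. Tie1 in the rescaled controls was the 1 member with all DSS mice lower, at -0.65, against 13.9% of genes.

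The other endothelial genes gave the setting for this. Of the 44 listed, 43 were found. None of the 24 fitted after DSS or the 23 fitted in water was called by limma for genotype, with 0 and 1 of them (Rasip1) at an unadjusted p under 0.05, and their median difference was -0.03 after DSS and -0.15 in water, against 0.02 and 0.00 over all genes. By treatment, 27 reached a mean of 1 TPM over all mice, of which 0 had all DSS mice higher and 4 all DSS mice lower under both scalings, beside the 4.16% of all genes as deposited and 6.96% rescaled with all DSS mice lower. Among these were Cd93, a surface receptor of endothelium and myeloid cells, at 1.16 to 4.46 TPM after DSS against 5.89 to 17.4 TPM in water, and Acvrl1, the receptor that pairs with endoglin, at 1.44 to 6.02 against 6.40 to 12.2 TPM. The other 2, named after their values were seen, were Fli1 and Icam2, which blood cells also express. Leukocyte genes were lower after DSS in the same libraries, with 11 of 13 not overlapping, and their part in these values was not tested. Cd34 (1.71 to 13.3 TPM against 8.67 to 36.2 TPM), the Notch ligand Dll4 (3.64 to 8.58 against 3.58 to 7.03 TPM) and Tm4sf1 (1.15 to 8.42 against 1.06 to 7.83 TPM) overlapped.

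Genes known from lymphatic endothelium were measured as well. The chemokine Ccl21a, which lymphoid stromal cells also make, was 15.8 to 80.5 TPM after DSS and 15.2 to 68.4 TPM in water, and Lyve1, a hyaluronan receptor also found on some macrophages, 4.75 to 14.4 and 9.51 to 59.3 TPM. Prox1, a transcription factor of lymphatic fate that enteroendocrine cells of the gut epithelium also express, was 0.831 to 2.02 TPM after DSS and 0.266 to 1.07 TPM in water, and the receptor gene Flt4 0.634 to 1.83 and 0.215 to 1.67 TPM. The 5 lymphatic genes fitted after DSS had a median r of 0.71 with Cdh5, all 5 positive, and of -0.37 with Mcam, all 5 negative. None was called for genotype by limma in either treatment, with 0 and 1 (Ccl21a, lower in the labelled-knockout mice) at an unadjusted p under 0.05. Of the vessel ligand genes, the VEGF family members Vegfb (1.74 to 7.27 TPM after DSS, 0 to 9.68 TPM in water) and Vegfc (1.59 to 2.94 and 0.545 to 2.53 TPM) and the angiopoietin Angpt2 (1.48 to 2.78 and 0.402 to 1.80 TPM) overlapped between treatments. Vegfa was listed at 0 in 15 of 16 mice, whereas 14 genes that every cell uses were above 0 in all of them. Pdgfb, which attracts pericytes, was lower in every DSS mouse (0.137 to 1.35 TPM) than in every water mouse (1.37 to 5.19 TPM). Under both scalings 1 of the 6 vessel ligand genes with a mean of 1 TPM had all DSS mice lower. Over all genes 4.16% did as deposited and 6.96% rescaled. In the same libraries 11 of 13 leukocyte genes were also lower in every DSS mouse, and their part in the level of Pdgfb was not tested.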

How the data were processed

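The 16 libraries of EpCAM+ cells were placed in 4 groups by the sample labels. The authors made stranded polyA libraries of single reads, quantified transcripts with kallisto and tested genotype with sleuth. The submitters' processing notes name mm10, and the study's list of resources gives a version for kallisto and sleuth. The authors deposited 1 table per treatment with TPM per principal transcript and mouse, scaled separately, and, per transcript, the natural log of estimated counts averaged within a table. Their p-values, q-values and fold columns were not used. Repeated lines were dropped (29373 lines, 28988 transcripts), and TPM was summed per gene symbol. GENCODE M21 holds 27827 of these transcripts with an equal version.

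The members and gene lists were chosen with earlier results of these data known. Within each table, limma 3.58.1 (R 4.3.3) with a variance trend was fitted to log2(TPM + 1) of genes whose mean reached 1 TPM, and genes were called at a Benjamini-Hochberg adjusted p under 0.05; the fit was tested on simulated data. Treatments were compared by levels only. Replicates are mice, so errors measure the spread between animals, whose number limits the precision; TPM does not give the depth. Of 4 planned relations with Cdh5, both with Ecscr were not computed because its values were clustered or 0, and the other 2 were adjusted together, with no p printed after DSS, where Mcam had been chosen. The 10 members, up to 5 genes of each other list by mean TPM, and the 5 genes most alike in pattern are named; Flt1, Ptprb, Emcn, Fli1, Icam2, Rasip1, Vegfa and the gene overlapping Ecscr were added after values were seen. Genes most like Ecscr are not named, for the reason just given. One gene that the rule on likeness would name is not reported here. Alternatives were a pseudocount of 0.1, other minimum levels, rescaling, cage as a covariate, the replicate number as a block, and leaving out each mouse. Python 3.11.15, numpy 2.4.6, pandas 2.3.3, scipy 1.17.1 and matplotlib 3.10.9 were used.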

Additional observations from a re-analysis of the deposited data

Results flagged for a closer look

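Of 29 pairs of gene and group with 4 or more mice, 1 had a mouse far from the others: Ecscr in the water controls, at 1.99 TPM in control 1 and at 0 in the other 3 mice. The rule marks about 1 in 20 groups by chance, and with 3 values at 0 any value above 0 meets it.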

How the results depend on the processing

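The number of mice and the low counts of Ecscr, Eng, Egfl7 and Pecam1 limit these results, and the cause of the shifts below was not tested. The 8 members other than Ecscr and Mcam had no called genotype difference under any alternative in which they were fitted. With a pseudocount of 0.1, Ecscr after DSS differed by 4.93 and Mcam by 1.87, Mcam in water differed by 0.773 between genotypes, against 0.125 with a pseudocount of 1, and Mcam differed by 2.03 between DSS and water; leaving out each mouse, Ecscr ranged from 2.34 to 3.53 and Mcam from 1.05 to 1.56. Calls over all genes after DSS were 0 with a pseudocount of 0.1, 0 with all genes and 0 to 3 without each mouse; in water they were 0 with a pseudocount of 0.1, 0 with a minimum of 5 TPM, 4 with all genes and 1 to 2 without each mouse. Same-numbered mice did not deviate together (r from -0.20 to -0.03 over 3 DSS pairs, -0.08 to 0.09 over 4 water pairs); with the replicate block, 0 genes were called in either treatment, Cdh5 after DSS was at 0.0341 and Kdr at 0.0608, and in water Kdr was at -0.20, Egfl7 at -0.27 and Plvap at -0.14. With a pseudocount of 0.1, Kdr in water was at -0.0320, Egfl7 at -0.20 and Eng at 1.47. Kdr in water was at -0.0326 with cage as a covariate. Leaving out each mouse turned the sign of small differences after DSS (Cdh5 -0.42 to 0.17, Kdr -0.19 to 0.32, Esam -0.11 to 0.31, Plvap -0.0290 to 0.57, Eng -0.41 to 0.33) and in water (Pecam1 -0.30 to 0.60, Kdr -0.20 to 0.17, Mcam -0.14 to 0.36, Egfl7 -0.27 to 0.44, Esam -0.24 to 0.25, Plvap -0.18 to 0.28). A gene was fitted only where it still reached the minimum level. For Mcam in water this held without control 3 or 4 or knockout-labelled mouse 1 or 3. For Eng after DSS it did not hold without control 3 or knockout-labelled mouse 3, so both ranges are partial. Tie1 (0.07 to 0.54) and Egfl7 (-0.48 to -0.04) after DSS moved without a change of sign. So did Eng (0.56 to 1.26), Cdh5 (-0.40 to -0.10) and Tie1 (-0.27 to -0.04) in water.

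Mcam with Cdh5 after DSS, given without a test, had r = 0.0966 with the mean of the 8 genes in place of Cdh5 and 0.175 without the 2 mice farthest from the median, and -0.29 to 0.17 without each mouse. In water r was 0.133 with Pecam1 in place of Cdh5 (exact permutation p = 0.743), 0.426 with the mean of the 8 genes (exact permutation p = 0.232), 0.685 on linear TPM (exact permutation p = 0.0432) and 0.439 to 0.787 without each mouse, and it passed an unadjusted 0.05 without control 3 (r = 0.711, exact permutation p = 0.0495) or without knockout-labelled mouse 2 (r = 0.787, exact permutation p = 0.0116). With the mice labelled knockout alone, 2 members had all DSS mice higher than all water mice, against 0 with both genotypes. Without the 3 DSS mice with most fibroblast TPM, an alternative chosen after seeing the data, Mcam was 0.78, Cdh5 0.14 and Kdr 0.00412 higher after DSS, Plvap was at -0.24 and Esam at -0.0552, both turned in sign, and the count of members that did not overlap was 0.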
